A study of Solanum lycopersicum with 6 samples.

Results

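Of the 4 tomato genes with the symbol PT1, PT2, PT3 or PT4 in RefSeq, 3 had probes on the array used here, and these carried 4 of its 43603 non-control probes. PT1 (gene 544136) had the probes A_96_P000286 and A_96_P239882, PT2 (gene 543546) had A_96_P081444 and PT4 (gene 778204) had A_96_P037266, each printed as 1 spot. No probe carried the transcript accession of PT3, so PT3 was not analysed here. The members were chosen by symbol and by the synonyms LePT1 and LePT2. PT2 led that choice because its signal was lower with loliolide in an earlier analysis of the same arrays. Its difference is therefore given as a description with no test.

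These genes encode phosphate transporters, membrane proteins that carry phosphate into the cell together with protons. The proton gradient that drives this uptake is built by plasma membrane proton pumps. In tomato, PT1 and PT2 are known from roots, where phosphate starvation induces both, and PT1 transcripts are also known from leaves. PT4 is known from roots colonised by mycorrhizal fungi. In the RefSeq assembly SLM_r2.1, PT2 lies on chromosome 3, PT4 on chromosome 6, and PT1 and PT3 are direct neighbours on chromosome 9.

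The samples were discs of 1 cm cut from leaves of 4-week-old plants of the cultivar Micro-Tom, a dwarf laboratory tomato. A cycle of 16 h light and 8 h dark is also given for all samples. For 12 h at 25 °C in continuous light, 3 samples floated on 300 µM loliolide, a breakdown product of carotenoids, and 3 control samples on 0.1% methanol. Each sample was read on a separate 1-colour Agilent array. The labels name triplicate harvests and no separate plants, so the p-values rest on a spread between samples that may be technical. The 3 methanol arrays shared 1 slide and the 3 loliolide arrays a second one. An effect of the slide and one of loliolide cannot be told apart in the values below. On the loliolide arrays 86.93% to 87.62% of spots were well above background, against 84.5% to 85.3% on the methanol arrays. The 75th percentile of signal was 817.7 on the array of loliolide replicate 3 and 1048 to 1117 on the others. The leaf markers CAB4 and CAB6A, chlorophyll-binding protein genes, were detected well above background throughout. The root markers, FER (a regulator of iron uptake) and PT4 itself, were well above background on none. Of the fruit markers, 1 of 3 E8 probes and 1 of 6 PG2 probes were tested. The tested E8 probe was well above background on all 6 arrays. That of PG2 was so on the 3 loliolide arrays and 1 methanol array, so no size is given for PG2. No probe matched the pollen markers LAT52 and LAT59. The scaled log2 signal of CAB6A differed by 0.06 (limma adjusted p = 0.939) and that of CAB4 by 0.30 (limma adjusted p = 0.730). These are the brightest probes. The other CAB6A probe was at -0.20, and the other CAB4 probes were at -0.08 to 0.24. E8 differed by 0.38 (limma adjusted p = 0.163). For E8 every loliolide array lay above every methanol array, as for 19.8% of all tested probes. PG2 passed the filter only through the loliolide arrays, so nothing is read from its order between the groups. The part of these markers in the results below was not tested.

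PT2 signal was low but well above background on all 6 arrays. Its processed signal, the spot intensity after background subtraction by the scanner program, was 46.6, 58.4 and 40.6 with methanol. With loliolide it was 19.7, 21.7 and 20.6. Every loliolide array lay below every methanol array, and the loliolide values lay closer together. The local background around the PT2 spot was 27 to 29 in the control group and 26 to 28 in the treated group. The PT2 signal was 6.25 to 9.51 times the lowest signal called well above background on its methanol arrays, and 3.6 to 4.29 times on its loliolide arrays.

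For comparison between arrays, each log2 signal was set against the 75th percentile of its own array. On this scale PT2 averaged -4.54 ± 0.26 (SD, n = 3) with methanol and -5.56 ± 0.22 (SD, n = 3) with loliolide. The difference was -1.03 on the log2 scale (SE 0.17), which is 2.04-fold lower with loliolide. Of the 37423 tested probes 174, or 0.465%, had a difference at or below that of PT2. Under the 19 other processing choices tried the difference ranged from -1.32 to -0.24. In the 6 of them that leave out 1 array the sign could not change, because the groups did not overlap. The smallest value came from a background correction that adds 50 to every signal. The same correction with nothing added gave -0.77. In bulk tissue, fewer cells that express a gene and less RNA per cell cannot be told apart.

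**Figure D1:**
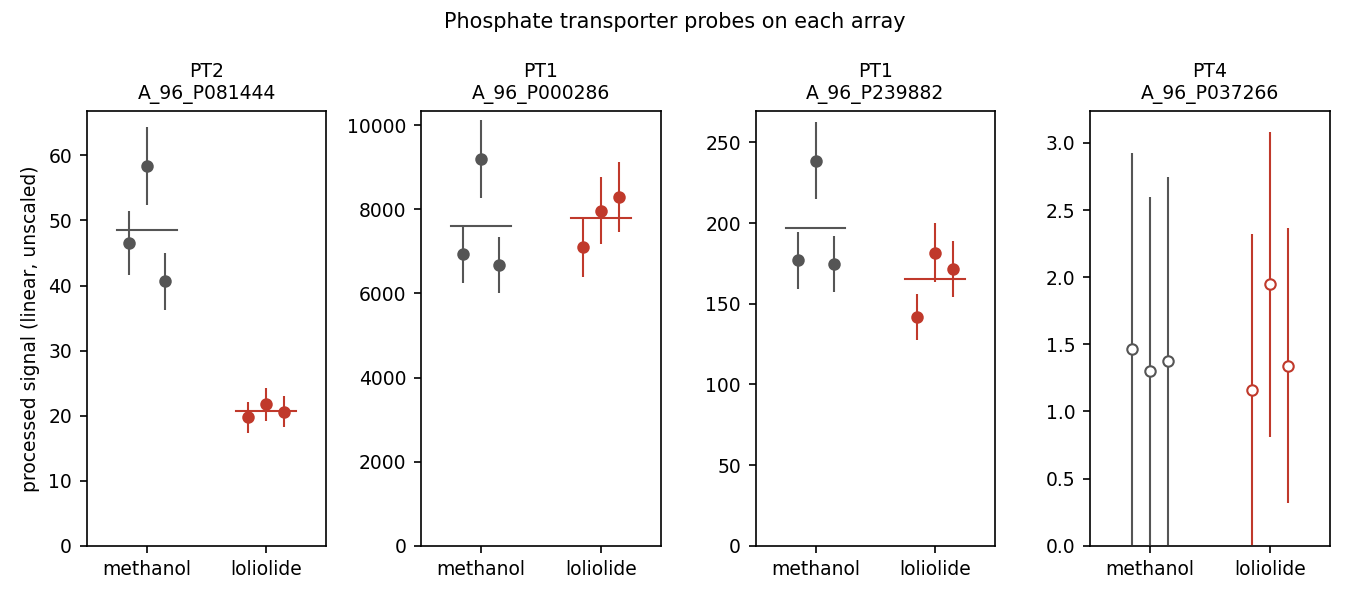
Processed signal (linear scale, unscaled, axis from 0) of each phosphate transporter probe on the 3 methanol (grey) and 3 loliolide (red) arrays. Error bars are the scanner program's error per spot, horizontal lines are group means, and open points are not well above background. The loliolide points of PT2 all lie below its methanol points, and those of both PT1 probes overlap with methanol.

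Control RNA added in known amounts was read by the E1A spike-in probes. The spike-in E1A_r60_a107 read 47.5, 41.1 and 43.5 with methanol, within the methanol range of PT2. With loliolide it read 49.9, 52.0 and 51.8. For the spike-in E1A_r60_3 the range was 68.0 to 73.9 in the control group and 128.5 to 159.0 in the treated group. After scaling these 2 spike-ins were higher by 0.41 and 1.25 on the log2 scale on the loliolide slide, and the 8 others by 0.23 to 0.38. Scaling every array to its 10 spike-ins gave a PT2 difference of -1.32. The part of the slide in the PT2 difference was not tested.

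PT1 was read by both of its probes on all arrays, and neither separated the groups. The processed signal of A_96_P000286 was 6930, 9201 and 6670 with methanol. With loliolide it was 7111, 7969 and 8296, inside the methanol range. Its difference was 0.24 on the log2 scale (95% interval -0.23 to 0.70, limma adjusted p = 0.524). The probe A_96_P239882 read 176.9, 238.5 and 174.5 with methanol and 142.0, 181.6 and 171.5 with loliolide. Its difference was -0.06 (95% interval -0.53 to 0.41, limma adjusted p = 0.902). In this fit the intervals of both probes do not show that PT1 was the same in both groups. They are not set against the PT2 difference, since PT2 was chosen for it and its size depended on the processing. The sign is not settled for either probe. A_96_P000286 was at -0.06 with the spike-in scaling, and A_96_P239882 was at 0.09 without methanol replicate 2 and at 0.10 without loliolide replicate 1.

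Of the 3 tested phosphate transporter probes, 0 passed a limma adjusted p of 0.05, where 0.783% of all tested probes did. At an unadjusted p under 0.05 limma counted 1, that of PT2, where 20.1% of all tested probes passed. The groups did not overlap, with loliolide lower, for 1 of the 3 probes, again PT2, and for 9.65% of all tested probes. Since PT2 was chosen on this contrast, nothing is read from these counts. The same holds for the count past the adjusted threshold under other processing. It was 1 with the spike-in scaling, where 0.174% of all tested probes passed in either direction, and 1 with array weights, where 9.44% did. None of the 4 probes is among the 27 loliolide-responsive probes of the authors' deposited table.

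PT4 gave no measurable signal. Its processed signal was 1.47, 1.30 and 1.37 with methanol and 1.16, 1.95 and 1.34 with loliolide. All 6 values were below the well-above-background level, so PT4 was not tested and no fold is given. Its spot read 29 to 31 against a local background of 25.5 to 28.

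Among the methanol arrays PT2 and PT1 varied together. PT2 was chosen on the contrast between the groups, and its spread inside the groups can enter such a contrast. How closely it followed PT1 is therefore given as a description. With methanol, replicate 2 lay above the group mean by 0.28 for PT2, by 0.28 for A_96_P000286 and by 0.29 for A_96_P239882 on the log2 scale. All 3 probes ranked the methanol arrays alike, as did 23.8% of all tested probes, and they did so in the unscaled signals too. Among the loliolide arrays the pattern depended on the scaling. On the scaled values replicate 3, the array with the low 75th percentile, lay above the group mean by 0.25 for PT2, 0.35 for A_96_P000286 and 0.32 for A_96_P239882. In the unscaled signals given above, replicate 2 was the highest for PT2 and for A_96_P239882, and replicate 3 for A_96_P000286. Set against the spike-ins, PT2 was at -6.34, -6.12 and -6.22 on the loliolide arrays, again highest on replicate 2.

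The log2 ratio of PT2 to PT1 on the same array does not depend on how an array is scaled as a whole. This measure was chosen after the values had been seen. Against A_96_P000286 this ratio was -7.22, -7.30 and -7.36 with methanol and -8.49, -8.52 and -8.65 with loliolide. Its level reflects probe brightness and has no meaning of its own, but its change was -1.26 between the groups. Against A_96_P239882 the ratio averaged -2.02 ± 0.09 (SD, n = 3) with methanol and -2.99 ± 0.12 (SD, n = 3) with loliolide, a change of -0.97. The SD of the ratio to A_96_P000286 was 0.07 with methanol and 0.09 with loliolide, while PT2 alone had SDs of 0.26 and 0.22. The methanol SD of PT2 was as wide with no scaling, at 0.26, and 0.32 against the spike-ins. Its loliolide SD was 0.07 with no scaling and 0.11 against the spike-ins, beside 0.09 for the ratio. Over all other tested probes set against A_96_P000286, the median SD was 0.27 and 0.31. Only 28 of these probes, or 0.0748%, had an SD no larger than that of PT2 in both groups. Set against A_96_P239882, 68 probes did so, or 0.182%. These shares are descriptions, since probes on the same arrays are not independent. How far the PT2 probe also binds the related PT1 transcript was not tested.

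Without each array in turn, the change of PT2 against PT1 ranged from -1.30 to -1.21 for A_96_P000286 and from -1.04 to -0.92 for A_96_P239882. The sign could not change in these fits, because neither ratio overlapped between the groups. Both changes also include the difference that PT2 was chosen for, so the narrow ranges are a description. With normexp background correction and an offset of 50 these changes were -0.48 and -0.22, and with no offset -1.02 and -0.70. The 2 PT1 probes also shifted against each other. The ratio of A_96_P000286 to A_96_P239882 was 5.29, 5.27 and 5.26 with methanol and 5.65, 5.46 and 5.60 with loliolide, a change of 0.29. The groups did not overlap (exact permutation test, two-sided p = 0.1, the smallest that 3 against 3 arrays can give).

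**Figure D2:**
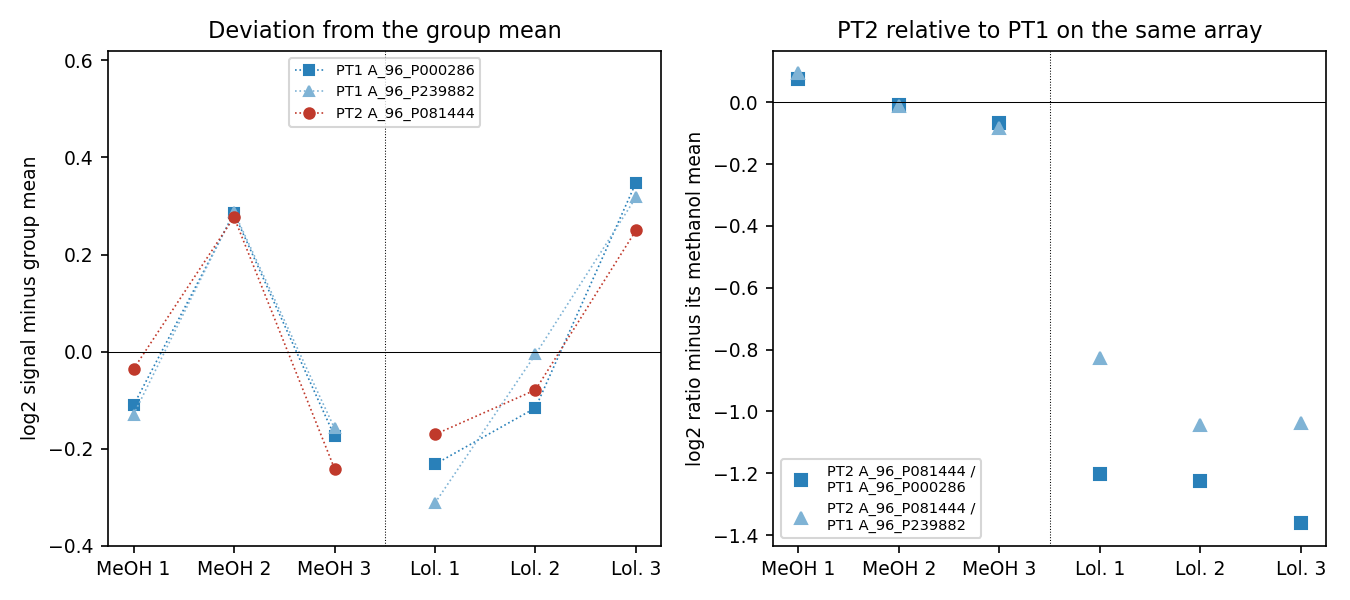
Left, log2 signal of PT2 and of both PT1 probes on each array minus the mean of its group (MeOH, methanol, and Lol., loliolide, with the replicate number). Right, log2 ratio of PT2 to each PT1 probe on each array minus the methanol mean of that ratio. Dotted lines only join the points of a probe. The signals are scaled to the 75th percentile of each array, which was low on loliolide replicate 3. The 3 probes are highest on replicate 2 among the methanol arrays, and both ratios lie lower on all loliolide arrays.

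**Figure D3:**
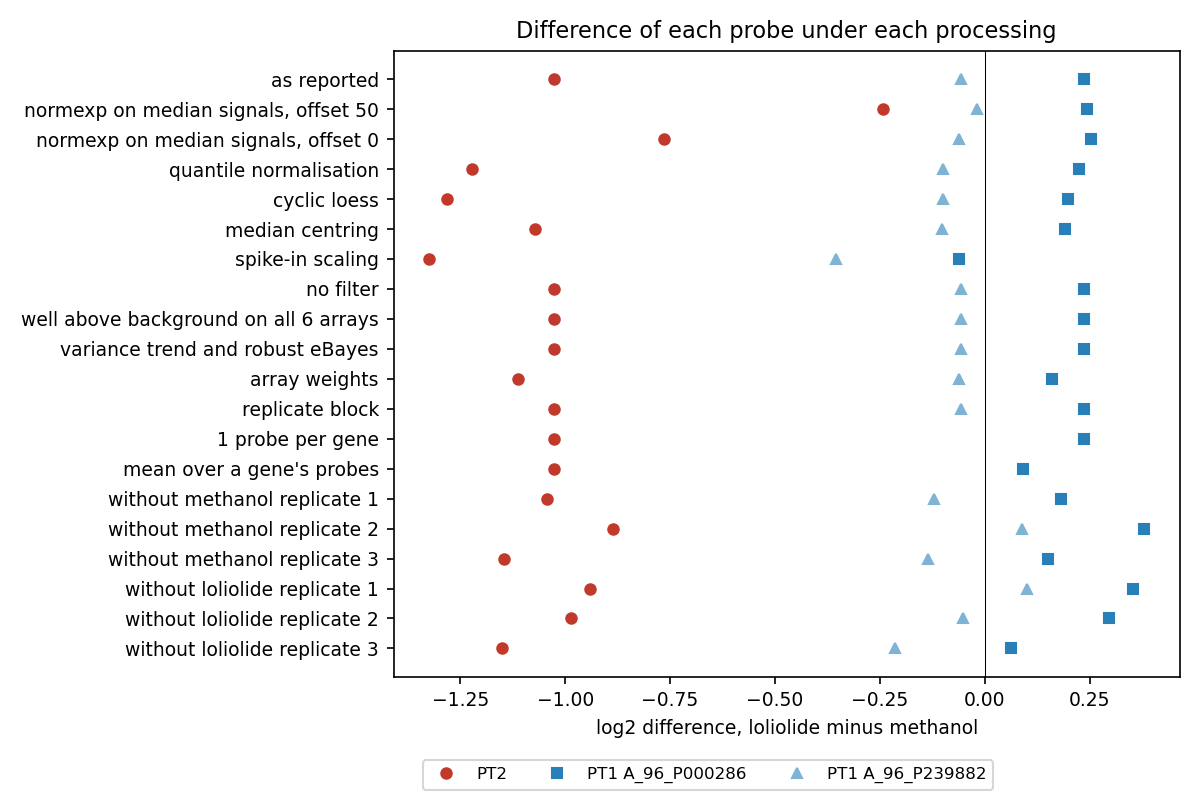
Log2 difference (loliolide minus methanol, horizontal axis) of PT2 and of both PT1 probes as reported and under each other processing, 1 line each. PT2 lies below 0 throughout, between -1.32 and -0.24, and the PT1 probes lie on both sides of 0.

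Genes of phosphate starvation, mineral transport and proton pumps, listed by symbol or synonym, were described next. Of 6 phosphate starvation genes 0 passed (limma, 1 at an unadjusted p under 0.05), where 0.783% of all tested probes passed and 20.1% did so without adjustment. The difference was below 0 for 4 of them and above 0 for 2. Their median log2 difference was -0.13, beside 0.06 for all tested probes. SQD1 makes the sugar head group of sulfolipid, which replaces phospholipids when phosphate is short. Its scaled log2 signal was -1.89, -1.76 and -1.40 with methanol and -2.10, -2.05 and -2.32 with loliolide. The groups did not overlap, with loliolide lower, as for 9.65% of all tested probes. The difference was -0.47 (95% interval -0.84 to -0.10, limma adjusted p = 0.173). APS1, an acid phosphatase, was at 1.69 ± 0.05 (SD, n = 3) with methanol and 1.5 ± 0.06 (SD, n = 3) with loliolide, a difference of -0.19 (limma adjusted p = 0.283). The groups of this probe did not overlap either, while the second APS1 probe was at 0.00. RNALE, a ribonuclease induced by phosphate starvation in cultured tomato cells, differed by 0.18 with overlapping groups (limma adjusted p = 0.493). The related ribonuclease gene rnalx differed by -0.10, and PPCK1 and PPCK2, kinase genes of phosphoenolpyruvate carboxylase, by 0.04 and -0.15. The 3 other PPCK2 probes were at -0.41 to -0.21.

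Of the 14 mineral transport genes with a probe 11 were tested, and 0 of these passed (limma, 2 at an unadjusted p under 0.05), beside the same 0.783% and 20.1% of all tested probes. The difference was above 0 for 6 and below 0 for 5. Their median was 0.04. The ammonium transporter gene AMT1-2 differed by 0.50 (95% interval 0.05 to 0.95, limma adjusted p = 0.212), and all 3 loliolide arrays lay above all methanol arrays, as for 19.8% of all tested probes. With array weights AMT1-2 and NRAMP3 passed, where 9.44% of all tested probes did. The other AMT1-2 probe differed by 0.22. The sulfate transporter gene ST2 differed by 0.41 with overlapping groups (limma adjusted p = 0.321). NRAMP3, a metal transporter gene, was 2.28, 2.23 and 2.13 with methanol and 1.81, 1.92 and 1.85 with loliolide on the scaled log2 scale. Its groups did not overlap, with loliolide lower, as for 9.65% of all tested probes, and the difference was -0.35 (limma adjusted p = 0.123). The genes FER, NRAMP1 and LeNRT2.3, a nitrate transporter gene, were not well above background on any array. Both proton pump genes were tested and 0 passed, also at an unadjusted p under 0.05 (limma), beside 0.783% and 20.1% of all tested probes. LHA1 differed by 0.13 (95% interval -0.08 to 0.34). Every loliolide array lay above every methanol array, as for 19.8% of all tested probes, and the other LHA1 probe was at -0.04. LHA2 differed by 0.07 (95% interval -0.16 to 0.31).

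**Figure D4:**
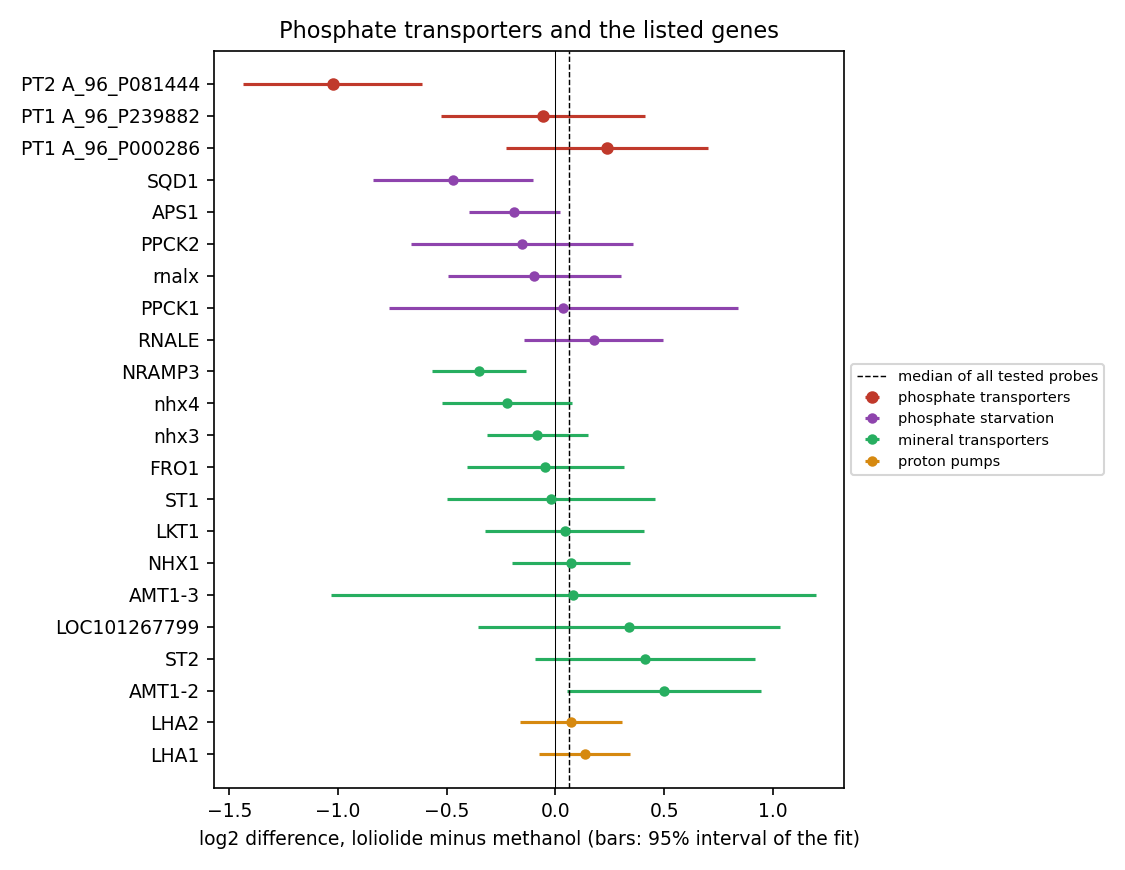
Log2 difference (loliolide minus methanol) of the tested phosphate transporter probes and of the brightest probe of each tested gene of the 3 lists, with 95% intervals from the fit over all probes. The dashed line is the median of all tested probes, 0.06. PT2, chosen for its difference, lies at -1.03, and the listed genes lie between -0.47 and 0.50.

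The named genes with the profile nearest to PT2 were found by the root mean square difference of log2 signals over the 6 arrays, after the mean of each probe was removed. Of 813 genes compared, the nearest was AOC at 0.28, the allene oxide cyclase gene of jasmonate synthesis. It differed by -0.83 between the groups. BI-GST/GPX, a glutathione transferase gene, followed at 0.31 with a difference of -0.56, and Prg1 at 0.31 with -0.78. PAT followed at 0.31 with -0.45, and CAS1, a cycloartenol synthase gene of sterol synthesis, at 0.33 with -0.68. These genes were picked for a lower signal with loliolide like that of PT2. The PT1 probes were at 0.49 for A_96_P239882, which differed by -0.06 between the groups, and 0.63 for A_96_P000286, which differed by 0.24.

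**Figure D5:**
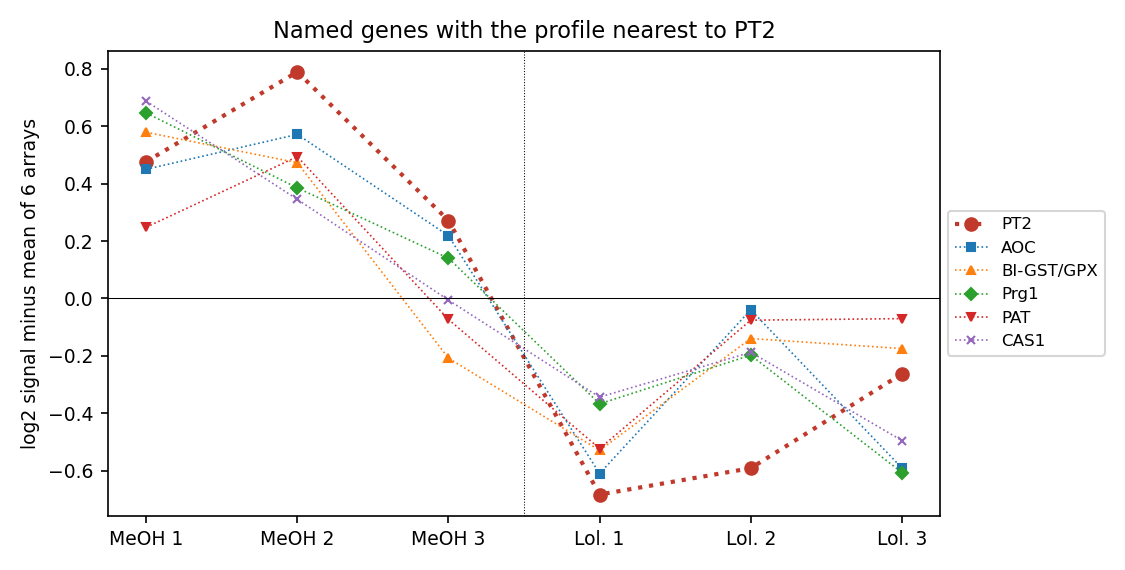
Log2 signal of PT2 and of the 5 named genes nearest to it on each array, minus the mean of that probe over the 6 arrays (MeOH, methanol, and Lol., loliolide). Dotted lines only join the points of a gene. PT2 is above 0 on the methanol arrays and below 0 on the loliolide arrays, with its lowest value on loliolide replicate 1.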

How the data were processed

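Total RNA (500 ng per sample) was labelled with cyanine-3, per the labels' protocols. The deposited scanner files hold the intensity of every spot. Agilent Feature Extraction had subtracted the background and detrended the values, version 11.5.1.1 per the file headers and 9.1 per the submitters' processing notes. The authors also deposited log2 ratios for 27 probes. The log2 of the processed signal minus each array's 75th percentile was used. Between 0 and 5 outlier spots per array were left out, none of them of the phosphate transporters. The tested probes were those flagged well above background in every sample of either group (37423 probes, 6180 left out). Groups were compared with limma 3.58.1 (lmFit, eBayes) under R 4.3.3, Benjamini-Hochberg adjusted over all tested probes with a threshold of 0.05. The fit was tested on simulated data.

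RefSeq accessions named 2576 probes of 1191 genes. The members and gene lists were chosen with earlier results of these data known. The lists were matched by symbol or synonym. ChrC, psi14A, psi14C, bZIP1 and ZIP matched by letters and were left out, because they name other or unsure functions. A gene was represented by its brightest tested probe. The text names all members, the 3 genes with the largest difference in each list and the 5 nearest to PT2, with some others of the lists given as values only. Planned comparisons of promoters and proteins were not run, since no sequences were used here. The number of arrays limits the precision. Alternatives covered background, scaling, filters, variance model, array weights, replicate numbers, probe choice and each array left out.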

Additional observations from a re-analysis of the deposited data

How the results depend on the processing

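The PT2 difference was -1.03 and kept its sign throughout. It moved by more than the spread between arrays with normexp on median signals, to -0.24 at an offset of 50 and -0.77 at no offset, under cyclic loess (-1.28) and after scaling to the spike-ins (-1.32). Without each array in turn it ranged from -1.15 to -0.89. The number of phosphate transporter probes past the threshold was 0, and it was 1 with the spike-in scaling, where 0.174% of all probes passed, and 1 with array weights, where 9.44% did. Both times it was PT2, chosen on this contrast, so nothing is read from it. The number of listed genes past the threshold was 0 and was 2 with array weights, NRAMP3 at -0.37 and AMT1-2 at 0.74, where 9.44% of probes passed. Over all probes 293 changed. The count was 95 and 152 with normexp at an offset of 50 and with none, 107 with quantile normalisation, 102 with cyclic loess, 189 with median centring, 65 with the spike-in scaling and 190 for probes well above background on all 6 arrays. It was 154 with a variance trend and robust eBayes, 3532 with array weights and 0 to 105 without each array in turn, with 0 without loliolide replicate 1 (5924 at an unadjusted p under 0.05 in limma). Scaling to the spike-ins shifted the median probe from 0.06 to -0.24. PT1 A_96_P000286 turned from 0.24 to -0.061 with it, and ranged from 0.06 to 0.38 without each array. PT1 A_96_P239882 turned from -0.06 to 0.09 without methanol replicate 2 and to 0.10 without loliolide replicate 1, with -0.21 as the lowest of the fits without 1 array, and was -0.35 with the spike-in scaling. With the replicate block 0 of all probes passed (limma, 5185 without adjustment), and no other call changed. The labels do not say that the numbers pair the samples, and same-numbered arrays deviated with correlations of -0.16, -0.14 and -0.46. What causes these shifts was not tested. The mean spot signal was not used, so normexp ran on median signals. PT2 lies near background, which limits the precision of its size.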
